A study of Mus musculus with 12 samples.

Results

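The autosomal genes of CD4+ T cells were compared between mice with XX and mice with XY- sex chromosomes that carried no Sry transgene. Of 39017 gene identifiers in the deposited count table, 34850 lay on chromosomes 1 to 19 by the GENCODE M21 annotation of mm10, and 13777 of these held enough reads to be tested. The compared libraries were 3 XX and 3 XY- of the 12 in the series. XX mice have a pair of X chromosomes, and XY- mice have an X and a Y chromosome from which the testis-determining gene Sry is missing, so both develop ovaries and both are recorded as female. All mice were SJL, were gonadectomized at 4 to 6 weeks of age with carprofen given around surgery and amoxicillin in the water after it, and had their lymph nodes taken at 8 to 12 weeks. CD4+ T cells were enriched by magnetic removal of other cells and were kept with anti-CD3/CD28 beads for 36 hours before RNA was isolated. The remaining 6 libraries, XXSry and XY-Sry, come from animals that carry Sry as a transgene. They were used here to estimate the spread between libraries and to set the same sex chromosome difference beside that of the females. The sources used here do not say if the 3 libraries of a group are 3 animals, so the spread between libraries may be partly technical.

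The model separates the sex chromosome complement from the gonads. In XX cells most genes of 1 X chromosome are silenced by Xist, while some escape silencing, and in XY- cells the Y chromosome supplies relatives of several of these escaping genes, among them regulators of chromatin and of RNA. Autosomal genes have the same number of copies in both groups. The beads used here engage the T cell receptor and CD28, which drive naive CD4+ T cells into growth, division and cytokine production.

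Total counts were 16151389, 15647796 and 11664186 in the XX libraries and 14468705, 13816220 and 15917143 in the XY- libraries. The labelled genotypes were borne out by the marker genes, with 41561 to 51786 Xist reads in XX libraries against 36 to 70 in XY- libraries, and 0 to 2 Ddx3y reads in XX libraries against 1483 to 1656 in XY- libraries. XX replicate 3 stood apart. Mitochondrial genes took 5.01% of its counts, against 2.27% to 2.87% in the other 11 libraries of the series. It was the highest of the 6 libraries for 24.4% of the tested autosomal genes and the lowest for 25.2%, where each other library was at either end for 12.3% to 18.0%. Many of the counts and list medians, and some of the leading genes, are therefore also given without XX replicate 3. All 16 genes of T cell identity were tested, and their summed level was 6846 to 7290 CPM (a gene's counts relative to the TMM-scaled total of its library) in XX libraries and 6712 to 6960 CPM in XY- libraries.

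Markers of other cells were low, and their sums overlapped between the groups with 1 exception. B cell markers summed to 337 to 397 CPM in XX libraries and 375 to 386 CPM in XY- libraries, and myeloid and dendritic cell markers to 52.6 to 55.1 CPM in XX libraries and 53.9 to 56.0 CPM in XY- libraries. Markers of CD8 T and NK cells summed to 69.8 to 122 CPM in XX libraries and 81.6 to 111 CPM in XY- libraries, those of stroma and endothelium to 90.1 to 109 CPM in XX libraries and 80.8 to 105 CPM in XY- libraries, and those of erythrocytes and platelets to 1.80 to 2.04 CPM in XX libraries and 1.45 to 1.94 CPM in XY- libraries. The exception was gamma delta and NKT cell markers, with 6.90 to 7.29 CPM in XX libraries and 6.17 to 6.83 CPM in XY- libraries. Itgax, S100a8 and S100a9 of the myeloid list, Ccl19, Ccl21a and Cxcl13 of the stromal list, and Hba-a1, Hba-a2 and Gp9 of the last list were at 0 in all 6 libraries. In whole cell preparations fewer cells of a type and less RNA per cell cannot be told apart, and the part of these markers in the results below was not tested.

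No autosomal gene passed the adjusted test between XX and XY- cells. With edgeR's quasi-likelihood test and Benjamini-Hochberg adjustment over all tested genes, 0 of 13777 autosomal genes had an adjusted p under 0.05 (0%), and the lowest adjusted p was 0.163, of Zfp771. At an unadjusted p under 0.05 stood 848 genes (6.16%), 403 of them higher in XX (2.93%) and 445 lower (3.23%). Without XX replicate 3, 0 of 13955 autosomal genes were called (0%), and 578 stood at an unadjusted p under 0.05 (4.14%), 265 higher (1.9%) and 313 lower (2.24%). Of the 848 genes, 368 were still under 0.05 without that library and all 848 kept their sign. The remaining libraries are a subset of those that chose the 848, and no sign changed whichever library was left out. The count at an unadjusted p also depended on other libraries. It was 1547 (11.1%) without XX replicate 2, where Il12rb2 and Jund were called, and 1363 (9.77%) without XY- replicate 2, where Psrc1, Rxra and Phlda3 were called. It was 548 (3.91%) without XY- replicate 1 and 465 (3.32%) without XY- replicate 3, with 0 called in both. Il12rb2, a chain of the interleukin 12 receptor, had a log2 change of 0.30 ± 0.14 (SE, as after every log2 change below) with all libraries and 0.51 without XX replicate 2 (edgeR adjusted p = 0.0159), and Rxra, the retinoid X receptor alpha, at -0.29 ± 0.10 with all libraries and -0.43 without XY- replicate 2 (edgeR adjusted p = 0.0300). With no filter on reads edgeR called 88 of 25282 autosomal genes, among them Hspa8, Phlda3, Psrc1, Junb, Jund and Il12rb2. After Hspa8 the smallest adjusted p of that fit were those of Gm23935, Mir6236, Lars2 and Gm42418. Changes hardly moved while the SE shrank. Hspa8 was at 0.65 ± 0.08 with no filter against 0.66 ± 0.24 with it, and Lars2 at -0.51 ± 0.07 against -0.50 ± 0.31. Lars2 stood apart in 1 library, with 224, 245 and 276 CPM in XX libraries and 591, 266 and 198 CPM in XY- libraries. Gm23935 and Mir6236 were likewise highest in XY- replicate 1, at 338 and 142 CPM. DESeq2 over the 12 libraries called 1 gene (0.00726%), Zfp771, at an adjusted p of 0.0357, and had 650 genes at an unadjusted p under 0.05 (4.72%).

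The differences were small. The median size of the log2 change over autosomal genes was 0.09, against a median standard error of 0.10, and the median log2 change itself was 0.00. Of the 13777 genes, 6949 had a positive change (50.4%), and without XX replicate 3 the share was 49.9%. Only 351 genes had a fitted change of at least 1.5-fold in size and 45 a change of at least 2-fold. Medians by chromosome ran from -0.03 on chromosome 8 to 0.02 on chromosome 13, and the share of genes at an unadjusted p under 0.05 ran from 3.73% on chromosome 18 to 7.57% on chromosome 15.

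**Figure D1:**
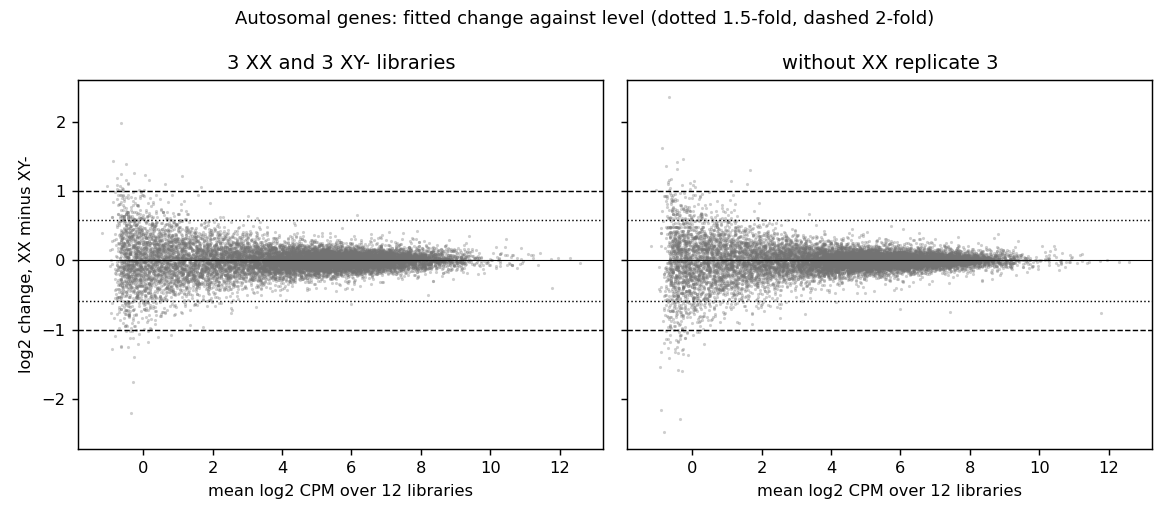
Log2 change of each tested autosomal gene (XX minus XY-, vertical axis) against its mean log2 CPM over the 12 libraries, with all 6 libraries on the left and without XX replicate 3 on the right. Points fan out at low levels, and among genes with a mean log2 CPM of 7 and above few reach 1.5-fold (dotted lines).

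How large a change the libraries still allow was read from the 95% interval of each log2 change, and the end farther from 0 was taken as the upper bound of the size of the change. The bound lay within 2-fold for 12430 genes (90.2%) and within 1.5-fold for 10355 genes (75.2%). Its median was 0.32 on the log2 scale, and 90% of genes had a bound up to 0.99. Without XX replicate 3 the bound lay within 2-fold for 12178 of 13955 genes (87.3%) and within 1.5-fold for 10232 (73.3%), with a median of 0.32. These intervals hold for 1 gene at a time. With intervals widened to hold for all genes at once, 8199 genes stayed within 2-fold and 11309 within 4-fold.

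The bound followed the level of the gene. Below a mean log2 CPM of 1, where 2120 genes had a median of 13.5 reads a library, the median bound was 1.06 and 42.3% of genes were held within 2-fold. Between 1 and 3 (2108 genes) the median bound was 0.59 and 94.9% were within 2-fold. From 3 to 5 (3271 genes) 94.2% were within 1.5-fold, from 5 to 7 (4392 genes) 98.7%, and at 7 and above (1886 genes) 98.9%. For the well expressed genes of these cells, a difference larger than 1.5-fold was thus outside the interval in nearly every case, while for most genes with a mean log2 CPM below 1 the interval reached beyond 2-fold. Of the 1347 genes with a bound of at least 2-fold, 1223 had a mean log2 CPM below 1 (90.8%) and 16 had a mean log2 CPM of at least 3. Il2 and Ifng, the genes of interleukin 2 and interferon gamma, were among those 16, and so was Hspa8, a constitutive heat shock chaperone.

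**Figure D2:**
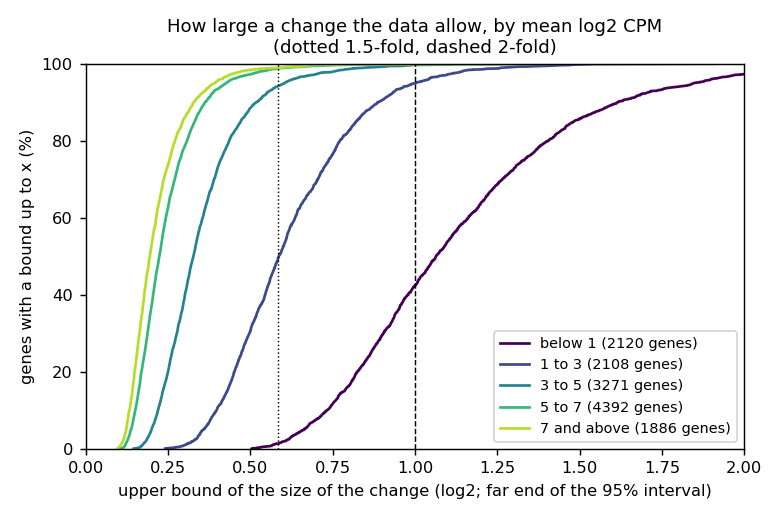
Cumulative share of tested autosomal genes (vertical axis, %) by the upper bound of the size of the XX minus XY- change (horizontal axis, log2), with 1 line per class of mean log2 CPM. At the 1.5-fold line 98.9% of genes at 7 and above are included, but 1.32% of genes below 1.

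Whole intervals away from 0 were rare. In 28 genes the interval lay wholly beyond a log2 change of 0.25 in either direction, in 3 genes beyond 0.5 and in 1 gene beyond 1. That gene, named here after its values were seen, was Fcer2a, the low affinity IgE receptor of B cells. Its level was 0.249, 0.191 and 0.267 CPM in XX libraries and 0.760, 1.65 and 0.934 CPM in XY- libraries, a log2 change of -2.21 ± 0.46 (SE, interval -3.19 to -1.23, edgeR adjusted p = 0.189) and -2.28 without XX replicate 3. The groups did not overlap, but each value rests on few reads. In the Sry-carrying groups the log2 change of Fcer2a had the other sign, 0.87 ± 0.42 (XXSry minus XY-Sry). Cd8a, a coreceptor of CD8 T cells, was at 3.11, 2.93 and 4.98 CPM in XX libraries and 6.49, 5.17 and 3.86 CPM in XY- libraries, and its log2 value differed by -0.52 ± 0.24 (edgeR adjusted p = 0.742), or by -0.77 without XX replicate 3. Neither gene stands for its list. The 11 tested B cell markers were 5 higher and 6 lower, from -2.21 to 0.80 with a median of -0.01, and the 8 tested markers of CD8 T and NK cells were 4 higher and 4 lower, from -0.52 to 0.94 with a median of 0.04.

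Gene by gene, 1317 of 13777 autosomal genes had no overlap in CPM between the 3 XX and the 3 XY- libraries (9.56%), 612 with XX higher (4.44%) and 705 with XX lower (5.12%). Among those with a mean log2 CPM of at least 1, the 12 higher and the 12 lower genes of smallest p are described here. None passed the adjusted test, and their edgeR adjusted p ran from 0.163 to 0.742. Since they were picked for small p and for groups that do not overlap, their changes are a description of the extreme of the distribution.

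The 12 lower genes included a zinc finger protein, an AP-1 factor and an inhibitory receptor. Zfp771, a zinc finger protein (chr7:127244274-127254803), had 22.9, 21.5 and 20.2 CPM in XX libraries and 26.0, 29.8 and 30.5 CPM in XY- libraries. Its log2 change was -0.42 ± 0.08 (edgeR adjusted p = 0.163), -0.38 without XX replicate 3 and -0.11 in the Sry-carrying groups. Junb, an AP-1 transcription factor induced by T cell receptor signals (chr8:84974484-84978718), had 275, 250 and 252 CPM in XX libraries and 345, 295 and 318 CPM in XY- libraries. All 3 XX values of Junb lay below the lowest XY- value, with a log2 change of -0.30 ± 0.07 (interval -0.45 to -0.15, edgeR adjusted p = 0.386), -0.28 without XX replicate 3 and -0.20 in the Sry-carrying groups. Junb overlaps the antioxidant gene Prdx2 in the annotation. No strand setting of the counting is known from the sources used here, so reads of such partners cannot be told apart. The same limit holds for other named genes that overlap a partner, among them Armc6, Plxna1, Kmt2c, Kctd18, Dmtf1, Il12rb2, Nfkb2, Il2, Jun and Jund.

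Pdcd1 encodes the inhibitory receptor PD-1 (chr1:94038305-94052553). It had 10.2, 13.2 and 8.99 CPM in XX libraries and 19.2, 13.6 and 15.9 CPM in XY- libraries, a log2 change of -0.58 ± 0.15 (edgeR adjusted p = 0.604). The highest XX value and the lowest XY- value of Pdcd1 were close together, and the change was -0.47 without XX replicate 3 and -0.13 in the Sry-carrying groups. Pim3, a serine/threonine kinase gene, had 40.4, 36.5 and 31.2 CPM in XX libraries and 56.0, 42.7 and 48.1 CPM in XY- libraries, a log2 change of -0.44 ± 0.11 (edgeR adjusted p = 0.562). Plxna1, a semaphorin receptor gene, had 30.6, 27.1 and 31.3 CPM in XX libraries and 41.4, 35.5 and 40.3 CPM in XY- libraries. Its log2 change was -0.40 ± 0.10 (edgeR adjusted p = 0.541) and was nearly the same in the Sry-carrying groups, at -0.38.

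Phlda3 and Psrc1, both known as targets of p53, had log2 changes of -0.59 ± 0.14 and -0.40 ± 0.10. Phlda3 had 21, 21.4 and 15.9 CPM in XX libraries and 36.3, 22.8 and 29.1 CPM in XY- libraries, and Psrc1 had 49.7, 51.6 and 50.9 CPM in XX libraries and 77.9, 54.3 and 68.5 CPM in XY- libraries. In both, XY- replicate 2 came closest to the XX libraries, and without it both passed the test with edgeR (adjusted p = 0.0332 for Phlda3 and 0.00605 for Psrc1). Armc6, Ptov1, Utf1 and 2210016F16Rik made up most of the remaining lower genes, with log2 changes of -0.40, -0.37, -0.95 and -0.26. Mir8094, at -0.36, lies within Ddx39b and its reads cannot be told apart from that gene.

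The 12 higher genes included a lymphoid transcription factor and a histone methyltransferase. Ikzf3, the lymphoid transcription factor Aiolos (chr11:98464902-98546031), had 144, 140 and 158 CPM in XX libraries and 115, 123 and 126 CPM in XY- libraries. Its log2 change was 0.28 ± 0.07 (edgeR adjusted p = 0.541), 0.23 without XX replicate 3 and 0.16 in the Sry-carrying groups. Zbtb38, a zinc finger protein that binds methylated DNA, had 61.5, 60.0 and 62.0 CPM in XX libraries and 51.7, 53 and 53.5 CPM in XY- libraries. Zbtb38 was tight within both groups and its log2 change of 0.21 ± 0.05 (edgeR adjusted p = 0.551) was the same to 2 decimals in the Sry-carrying groups.

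Kmt2c, a histone H3 lysine methyltransferase, had 174, 175 and 188 CPM in XX libraries and 146, 163 and 150 CPM in XY- libraries, a log2 change of 0.23 ± 0.06 (edgeR adjusted p = 0.562). Hipk2, a nuclear kinase, had 136, 138 and 165 CPM in XX libraries and 102, 127 and 113 CPM in XY- libraries, a log2 change of 0.36 ± 0.10 in these groups (edgeR adjusted p = 0.742) and 0.41 in the Sry-carrying groups. Akr1e1, at 1.22 ± 0.32, and Perm1, at 0.66 ± 0.19, had means of 1.12 to 3.42 CPM in their groups, and in the Sry-carrying groups they were at 0.20 and 0.07. Xdh, which encodes xanthine dehydrogenase, was at 0.37, and Kctd18, Rap1a and Dmtf1 were between 0.20 and 0.23. In the Sry-carrying groups Xdh and Kctd18 were both at 0.19, Rap1a at 0.01 and Dmtf1 at 0.02. C130026I21Rik, at 0.86, overlaps A530040E14Rik in the annotation, and reads of such copies can be split between them, so its value is uncertain.

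All 24 genes stayed under an unadjusted p of 0.05 without XX replicate 3, which is a subset of the libraries that chose them. The log2 change in the Sry-carrying groups was not used in the choice, but their libraries entered the shared estimate of spread and the mean level. Between XXSry and XY-Sry, 23 of the 24 had the same sign, the exception being Mir8094 at 0.00. With edgeR, 14 had the same sign at an unadjusted p under 0.05, which rests on the same estimate of spread. In that comparison 1435 of 13777 autosomal genes stood at an unadjusted p under 0.05 (10.4%), with 5.97% of genes higher in XXSry and 4.45% lower, and 1 was called (0.00726%). The called gene was Nrn1, which encodes neuritin, with a log2 change of 0.55 ± 0.09 (edgeR adjusted p = 0.0233) in the Sry-carrying groups and 0.05 ± 0.09 between XX and XY- without a transgene (edgeR adjusted p = 0.931). It was named after its values were seen.

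**Figure D3:**
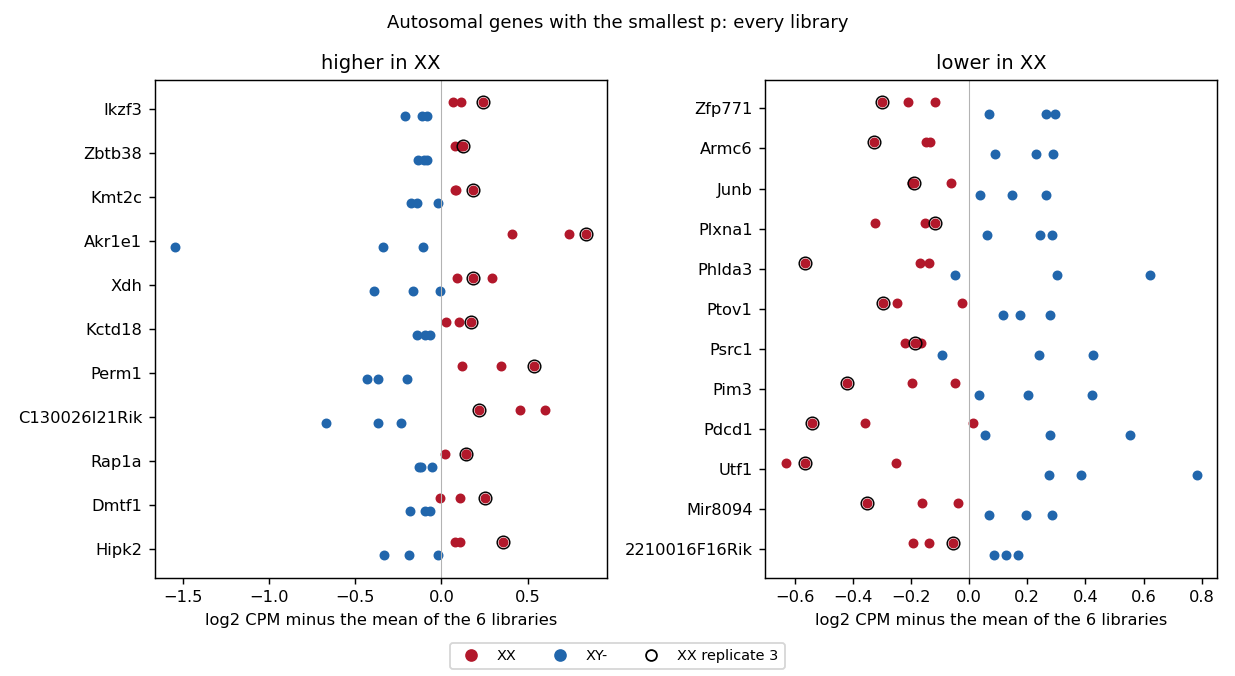
Log2 CPM in each XX (red) and XY- (blue) library for the genes named among the 24, minus the mean of the 6 libraries (horizontal axis), with the higher genes on the left and the lower on the right. XX replicate 3 is circled, and all 24 genes kept an unadjusted p under 0.05 without it.

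Over all autosomal genes the pair of comparisons shared no library, though both used the estimate of spread from all 12 libraries. Of the 848 genes at an unadjusted p under 0.05 between XX and XY-, 658 had the same sign between XXSry and XY-Sry (77.6%), against 8531 of all 13777 (61.9%). Both an unadjusted p under 0.05 in the Sry-carrying groups and the same sign were found for 179 of the 848. Over all 13777 autosomal genes this held for 1163. The interaction of sex chromosomes with Sry, which tests whether the difference itself differed, called 0 autosomal genes with edgeR (0%) and left 353 at an unadjusted p under 0.05 (2.56%).

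The panel of CD4+ T cell genes covered receptors, cytokines and lineage regulators, and 19 of its 20 genes were autosomal and tested. Of the 19, 10 had a positive and 9 a negative change, 0 were called (0%), and 3 stood at an unadjusted p under 0.05, against 6.16% of all autosomal genes. The median log2 change was 0.01, and -0.04 without XX replicate 3. The bound lay within 1.5-fold for 13 of the 19 and within 2-fold for 16.

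The T cell receptor complex and the activation receptors were held to narrow bounds. Cd4, the coreceptor that defines these cells, had 810, 865 and 916 CPM in XX libraries and 834, 833 and 838 CPM in XY- libraries, a log2 change of 0.05 with an interval of -0.07 to 0.16. Cd3e, a signalling chain of the T cell receptor complex, was at 0.14 with an interval of -0.02 to 0.30, and at 0.02 without XX replicate 3, which held its highest value. Il2ra, the interleukin 2 receptor chain induced by activation, had 2468, 2563 and 2491 CPM in XX libraries and 2167, 2562 and 2423 CPM in XY- libraries, a log2 change of 0.07 with an interval of -0.05 to 0.20. In all 3 genes the groups overlapped.

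Besides Pdcd1, at -0.58 as given above, the panel held other costimulatory and inhibitory receptors. Icos, a costimulator of follicular help, had 505, 437 and 451 CPM in XX libraries and 417, 378 and 439 CPM in XY- libraries, a log2 change of 0.18 ± 0.07 (edgeR adjusted p = 0.742), with an overlap of 1 library. Ctla4, which restrains CD28 signals, was at 0.14 with an interval of -0.01 to 0.28. Ccr7, a chemokine receptor for homing to lymph nodes, was at 0.01 with an interval of -0.15 to 0.17.

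The transcription factors of the panel named here overlapped between the groups. Gata3, the regulator of Th2 cells, was at 0.13 (interval -0.03 to 0.29), Bcl6, of follicular helper cells, at 0.03 (interval -0.25 to 0.31), Tcf7, of naive cells, at -0.01 (interval -0.15 to 0.13), and Myc, a driver of growth, at 0.07 (interval -0.13 to 0.27). Irf4 (interval -0.47 to 0.29) and Nr4a1 (interval -0.37 to 0.18), which report T cell receptor signals, were both at -0.09. Tbx21, the regulator of Th1 cells, had 91.6, 53 and 69.1 CPM in XX libraries and 113, 50.9 and 92.0 CPM in XY- libraries, so that both groups spanned a wide range, and its interval ran from -0.81 to 0.29.

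Cytokine genes varied widely between libraries of the same group. Il2, the growth factor of T cells, had 6.28, 4.65 and 6.94 CPM in XX libraries and 15.1, 4.74 and 8.41 CPM in XY- libraries. Its log2 change was -0.67 ± 0.32 (interval -1.36 to 0.02, edgeR adjusted p = 0.742) and was -0.78 without XX replicate 3. Ifng had 9.58, 4.46 and 7.83 CPM in XX libraries and 14.8, 3.88 and 10.1 CPM in XY- libraries, an interval of -1.27 to 0.46. Tnf, which encodes tumour necrosis factor, was better measured, with 75.0, 66.0 and 70.6 CPM in XX libraries and 89.6, 69.3 and 83.9 CPM in XY- libraries, a log2 change of -0.20 ± 0.10 (interval -0.41 to 0.01). For all 3 genes XY- replicate 1 was the highest of the 6 libraries, while XY- replicate 2 lay within the XX range for Il2 and Tnf and below it for Ifng. In the Sry-carrying groups Il2, Ifng and Tnf were at -0.88, -0.97 and -0.43.

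Of the 14 tested genes of the cytokine and chemokine list, 12 had a negative change, 0 were called, and the median log2 change was -0.32, against 0.00 over all autosomal genes. At an unadjusted p under 0.05 stood 1 higher and 2 lower genes (2.93% and 3.23% over all autosomal genes). Only 5 of the 14 had a bound within 2-fold, and the median bound was 1.33. The higher one was Il4, the Th2 cytokine, with 0.684, 0.829 and 0.712 CPM in XX libraries and 0.345, 0.503 and 0.311 CPM in XY- libraries. Its log2 change was 0.94 ± 0.37 (edgeR adjusted p = 0.742), and -0.13 in the Sry-carrying groups, where no library was above 0.599 CPM. Each value rests on few reads. Only the XX libraries were high enough for the filter on reads, so Il4 was tested through the group in which it is high. Its change and its place as the higher gene are therefore a description only. The lower were Tnfsf11, which encodes the cytokine RANKL, at -0.35 ± 0.14, and the chemokine gene Ccl4 at -0.76 ± 0.31. Csf2, the gene of GM-CSF, had the widest interval of the list, from -1.83 to 0.28, and 6 further members, such as Il21 and Il22, were below the filter on reads. The mean log2 CPM of the list, relative to the 6 libraries, was 0.14, -0.40 and -0.09 in XX libraries and 0.51, -0.25 and 0.09 in XY- libraries. The groups overlapped, and replicate 2 was the lowest library in both. The median was -0.33 without XX replicate 3, but -0.06 without XY- replicate 1 and -0.54 without XX replicate 1.

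Targets and inhibitors of NF-kB, the transcription factor family released by T cell receptor and CD28 signals, leaned the same way. Of 18 tested genes 15 had a negative and 3 a positive change, 0 were called, 4 stood at an unadjusted p under 0.05, all lower (3.23% over all autosomal genes), and the median was -0.09 (-0.12 without XX replicate 3, -0.18 in the Sry-carrying groups). Without XX replicate 3, 0 of the 18 stood at an unadjusted p under 0.05, and 17 were negative. All 18 had a bound within 2-fold, and 16 within 1.5-fold. As examples of members whose window holds an NF-kB motif, 250 bases before the start of a transcript are printed for Nfkb2, a subunit gene of the list, and for Nfkbia, the gene of the inhibitor IkB alpha, which was chosen after its values were seen because its window holds a match. Sequences are from RefSeq for GRCm38.p6, at chr19:46304487-46304736 on the plus strand for Nfkb2, at 1 of its 3 annotated starts, and at chr12:55492648-55492897 on the minus strand for Nfkbia. Capitals mark the match to the NF-kB motif, which reads GGGA, any base, TT, any base, CC and was searched on both strands. In Nfkbia the printed strand holds its reverse complement.
Nfkb2: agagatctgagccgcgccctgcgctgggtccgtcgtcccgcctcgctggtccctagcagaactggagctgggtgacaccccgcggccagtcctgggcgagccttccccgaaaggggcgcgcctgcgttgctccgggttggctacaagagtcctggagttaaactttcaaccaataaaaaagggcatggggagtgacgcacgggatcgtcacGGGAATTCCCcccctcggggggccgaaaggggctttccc
Nfkbia: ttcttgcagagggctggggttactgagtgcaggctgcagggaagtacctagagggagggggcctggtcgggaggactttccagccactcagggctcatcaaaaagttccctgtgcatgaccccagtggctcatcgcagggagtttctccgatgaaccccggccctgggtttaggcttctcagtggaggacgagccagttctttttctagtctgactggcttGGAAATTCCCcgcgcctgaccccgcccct

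The match lies 39 to 30 bases before the start in Nfkb2 and 29 to 20 bases before it in Nfkbia. Among the 15 list members with a window, 5 hold a match (33.3%), and among 9576 tested autosomal genes with a window, 128 do (1.34%). A match is a description of these letters only. Nfkb2 had 93.4, 88.0 and 89.96 CPM in XX libraries and 137, 91.2 and 108 CPM in XY- libraries, with a log2 change of -0.31 ± 0.13 (edgeR adjusted p = 0.742) that was equally large in the Sry-carrying groups. XX replicate 1 overlapped the lowest XY- library. Nfkbia had 158, 152 and 157 CPM in XX libraries and 192, 160 and 167 CPM in XY- libraries without overlap, a log2 change of -0.15 ± 0.08 (edgeR adjusted p = 0.742). Relb, at -0.31, and Nfkb1, at -0.16, are subunit genes of the same family, and Bcl2l1, which encodes the survival factor Bcl-xL, was at -0.25. The median of the list was -0.04 without XY- replicate 1, the library in which its mean level was highest.

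The p53 targets, which arrest the cell cycle or promote cell death, had the largest share at an unadjusted p under 0.05 of the gene lists, against 6.16% over all autosomal genes, 3.23% lower. Of 16 tested genes, 12 had a negative change, 0 were called and 5 stood at an unadjusted p under 0.05, all lower, with a median of -0.16 (-0.15 without XX replicate 3, -0.22 in the Sry-carrying groups). Leaving out XX replicate 3, 3 of the 16 stood at an unadjusted p under 0.05. Cdkn1a, the cell cycle inhibitor p21, had 69.6, 58.4 and 64.0 CPM in XX libraries and 101, 66.3 and 80.8 CPM in XY- libraries, a log2 change of -0.37 ± 0.14 (edgeR adjusted p = 0.742). Plk2, a polo-like kinase gene, was at -0.42 ± 0.17, and Bax, which promotes cell death, was at -0.19 ± 0.08. The lowest XY- library for Cdkn1a was replicate 2, which lay within the XX range, and the median of the list was -0.08 without XY- replicate 1 and -0.25 without XY- replicate 2. The bound lay within 2-fold for all 16.

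AP-1 and immediate early genes, the first to respond to receptor signals, were split 8 positive to 9 negative among 17 tested, with a median of -0.03. The median was -0.08 without XX replicate 3, -0.19 without XX replicate 1 and 0.02 without XX replicate 2. All 4 at an unadjusted p under 0.05 were lower in XX (3 without XX replicate 3, and 3.23% over all autosomal genes). Besides Junb these were Jun, with 24.6, 24.2 and 26.2 CPM in XX libraries and 28.5, 33.9 and 29.0 CPM in XY- libraries (log2 change -0.29 ± 0.09, edgeR adjusted p = 0.742), Ier2 at -0.15 ± 0.05 and Jund at -0.27 ± 0.11. The groups did not overlap for Jun and Ier2. Jun was at -0.32 without XX replicate 3 and -0.25 in the Sry-carrying groups. Jund had 380, 531 and 372 CPM in XX libraries and 475, 555 and 518 CPM in XY- libraries, and was called with edgeR without XX replicate 2 (adjusted p = 0.0215) and with no filter on reads (adjusted p = 0.00932).

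Genes of naive and quiescent T cells leaned the other way. Of 16 tested, 12 had a positive change, 0 were called, 3 higher and 1 lower stood at an unadjusted p under 0.05, and the median was 0.07 (0.06 without XX replicate 3, 0.01 without XX replicate 2, 0.21 in the Sry-carrying groups). Without XX replicate 3 the count at an unadjusted p under 0.05 was 1 higher and 0 lower. Over all autosomal genes 2.93% were higher and 3.23% lower at that threshold with all libraries. Il7r, the interleukin 7 receptor chain that sustains naive cells, had 59.3, 54.0 and 55.8 CPM in XX libraries and 42.5, 53.3 and 41.7 CPM in XY- libraries, a log2 change of 0.30 ± 0.10 (edgeR adjusted p = 0.742), 0.31 without XX replicate 3 and 0.32 in the Sry-carrying groups. Satb1, a chromatin organiser of T cells, was at 0.12 ± 0.05, and Btg1, an antiproliferative gene, was at -0.13 ± 0.06. For Il7r the XY- library nearest to XX was replicate 2. The mean level of the list was -0.06, 0.15 and 0.06 in XX libraries and -0.14, 0.09 and -0.11 in XY- libraries, which overlap.

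Of the 22 tested T cell activation genes, 15 had a negative change, with a median of -0.05 (-0.06 without XX replicate 3). At an unadjusted p under 0.05 stood 1 higher and 2 lower (2.93% and 3.23% over all autosomal genes). Besides Icos and Pdcd1 this was Tnfrsf4, the costimulatory receptor OX40, at -0.15 ± 0.07. All 22 had a bound within 2-fold. The mean level of this list was 0.03, -0.16 and 0.01 in XX libraries and 0.20, -0.16 and 0.07 in XY- libraries. As for cytokines, replicate 2 was lowest in both groups, and the median turned to 0.03 without XY- replicate 1 and 0.01 without XX replicate 2. T cell identity genes, with 10 of 16 positive and a median of 0.03, were all held within 1.5-fold. Cd5, a restraint on receptor signals, was at -0.14 ± 0.05 and at -0.10 without XX replicate 3. Cd2, an adhesion receptor, was at 0.22 ± 0.08 with groups that overlapped, and at 0.12 without XX replicate 3.

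The lineage programs held few tested genes each. Th1 genes had a median of 0.01 over 11 tested, Th2 genes 0.00 over 10, follicular helper genes -0.01 over 10, regulatory T cell genes 0.08 over 12 and Th17 genes -0.14 over 8, of which 6 were negative. Leaving out XX replicate 3 gave 0.05 for Th1, 0.02 for Th2, -0.08 for follicular helper, 0.06 for regulatory T cell and -0.10 for Th17 genes. With each library left out the Th17 median ran from -0.28 to -0.05, and that of regulatory T cell genes from -0.03, without XY- replicate 1, to 0.13. Nrp1, a semaphorin coreceptor of regulatory T cells, had 25.4, 29.4 and 26.4 CPM in XX libraries and 31.6, 33.5 and 30.7 CPM in XY- libraries, a log2 change of -0.24 ± 0.08 (edgeR adjusted p = 0.742). Its groups did not overlap, and in the Sry-carrying groups Nrp1 was at 0.03. Ccr6, a chemokine receptor of Th17 cells, was at -0.50 ± 0.22.

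Type I interferon response genes leaned towards XX. Of 29 tested, 25 had a positive change (24 without XX replicate 3, 23 in the Sry-carrying groups) and 0 were called. At an unadjusted p under 0.05 stood 1 higher (0 without XX replicate 3), against 2.93% higher over all autosomal genes. The median was 0.14, 0.11 without XX replicate 3 and 0.13 in the Sry-carrying groups. Ifit2, an interferon-induced inhibitor of translation, had 104, 93.1 and 99.8 CPM in XX libraries and 87.8, 96.2 and 83.7 CPM in XY- libraries, a log2 change of 0.15 ± 0.07 (edgeR adjusted p = 0.742). Zbp1, a sensor of Z-form nucleic acids, had 262, 268 and 304 CPM in XX libraries and 218, 260 and 243 CPM in XY- libraries (0.21 ± 0.11), and was the only member without overlap. Ddx58, the RNA sensor RIG-I, was at 0.18 ± 0.11, and Ifit3, which has a near copy in the mouse genome, at 0.39 ± 0.23. The mean level of the list was 0.16, -0.09 and 0.14 in XX libraries and -0.08, 0.24 and -0.36 in XY- libraries. XY- replicate 2 was thus the highest of the 6 and XY- replicate 3 the lowest, and without XY- replicate 3 the median was 0.01, against 0.29 without XY- replicate 2. The bound lay within 2-fold for 27 of the 29, and the widest, of Rsad2 (viperin), was 1.23.

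Interferon gamma response genes had a median of 0.02 over 18 tested, with 12 positive. At an unadjusted p under 0.05 stood 4 higher and 1 lower, against 1 higher and 0 lower without XX replicate 3. Over all autosomal genes the shares were 2.93% higher and 3.23% lower, and 1.9% and 2.24% without XX replicate 3. B2m, the invariant chain of MHC class I, had 1524, 1424 and 1944 CPM in XX libraries and 1314, 1351 and 1278 CPM in XY- libraries, a log2 change of 0.31 ± 0.09 (edgeR adjusted p = 0.742). The groups did not overlap, and without XX replicate 3, the highest, B2m was at 0.17. Gbp7, a guanylate-binding protein of an array of similar genes, was at 0.23 ± 0.09, and Socs1, an inhibitor of cytokine receptor signals, at -0.17 ± 0.07, or -0.07 without XX replicate 3.

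**Figure D4:**
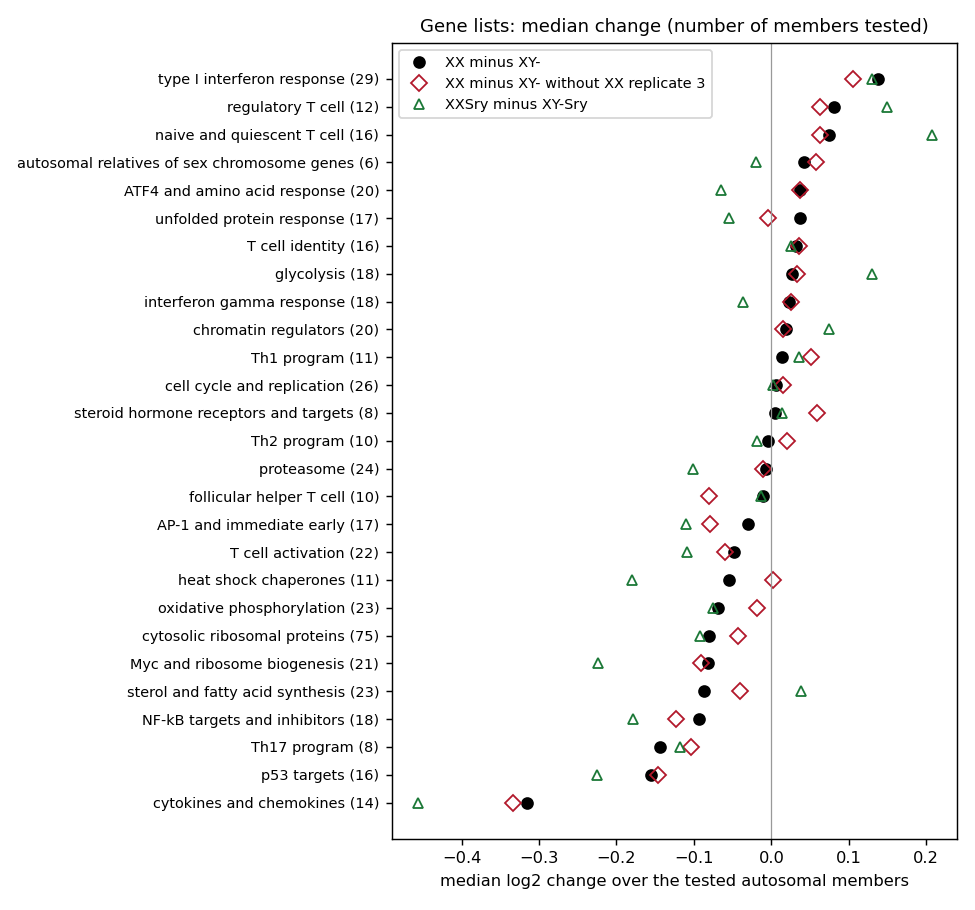
Median log2 change over the tested autosomal members of each list other than the markers of other cells and the CD4 panel (horizontal axis; number tested in brackets) for XX minus XY- (filled), the same without XX replicate 3 (diamonds) and XXSry minus XY-Sry (triangles). Among the lists plotted, medians run from -0.32 for cytokines and chemokines to 0.14 for the type I interferon response, and the median of all autosomal genes is 0.00.

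Several lists of growth and metabolism were tightly bounded. All 26 cell cycle and replication genes, all 21 of Myc and ribosome biogenesis, all 23 of oxidative phosphorylation, all 24 of the proteasome, all 17 of the unfolded protein response and all 20 chromatin regulators had a bound within 1.5-fold, against 16 of 18 of glycolysis and 15 of 20 of the ATF4 and amino acid response. The cell cycle median was 0.01, with Mki67, a proliferation marker, at 0.18 ± 0.07 and at 0.08 without XX replicate 3. Myc and ribosome biogenesis genes had 15 of 21 negative and a median of -0.08 (-0.22 in the Sry-carrying groups, where all 21 were negative), with Nop16, at -0.26 ± 0.11, and Nle1, at -0.22 ± 0.09, under an unadjusted p of 0.05, and 0 of the 21 were without XX replicate 3. That median was 0.00 without XX replicate 2 and -0.19 without XY- replicate 2.

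Oxidative phosphorylation genes were negative in 18 of 23, with a median of -0.07 that was -0.02 without XX replicate 3. Cyc1, a subunit of complex III, was at -0.18 ± 0.08, and Cox4i1, of complex IV, at -0.11 ± 0.05. Sterol and fatty acid synthesis genes were likewise negative in 18 of 23, with a median of -0.09 that was -0.04 without XX replicate 3 and 0.04 in the Sry-carrying groups. Fasn, the fatty acid synthase, had 770, 706 and 700 CPM in XX libraries and 845, 772 and 866 CPM in XY- libraries, a log2 change of -0.19 ± 0.07 (edgeR adjusted p = 0.742). The groups did not overlap for Fasn, though their nearest libraries were close. Srebf2, the regulator of sterol genes, was at -0.12 ± 0.05, and Lss, of lanosterol synthesis, at -0.11 ± 0.05.

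Glycolysis (18 tested, median 0.03), the ATF4 and amino acid response (20 tested, median 0.04), the unfolded protein response (median 0.04, with Xbp1, its transcription factor, at 0.18 ± 0.07), the proteasome (median -0.01, with Psmc2 at -0.14 ± 0.06) and chromatin regulators (median 0.02, with Setd2, a histone H3 lysine methyltransferase, at 0.14 ± 0.06) lay close to 0. Without XX replicate 3 the median of the unfolded protein response was -0.004, and Setd2 was at 0.08. Steroid hormone receptors and targets had a median of 0.00 over 8 tested genes, and 0.06 without XX replicate 3. Autosomal relatives of sex chromosome genes, such as Kdm5a, a relative of the X-linked demethylase Kdm5c, were positive in 6 of 6 tested, from 0.01 to 0.07, with every bound within 1.5-fold and 0 at an unadjusted p under 0.05. Without XX replicate 3, 5 of the 6 were positive and Kdm5a, at 0.13, stood at an unadjusted p under 0.05. In the Sry-carrying groups 3 of the 6 were positive.

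**Figure D5:**
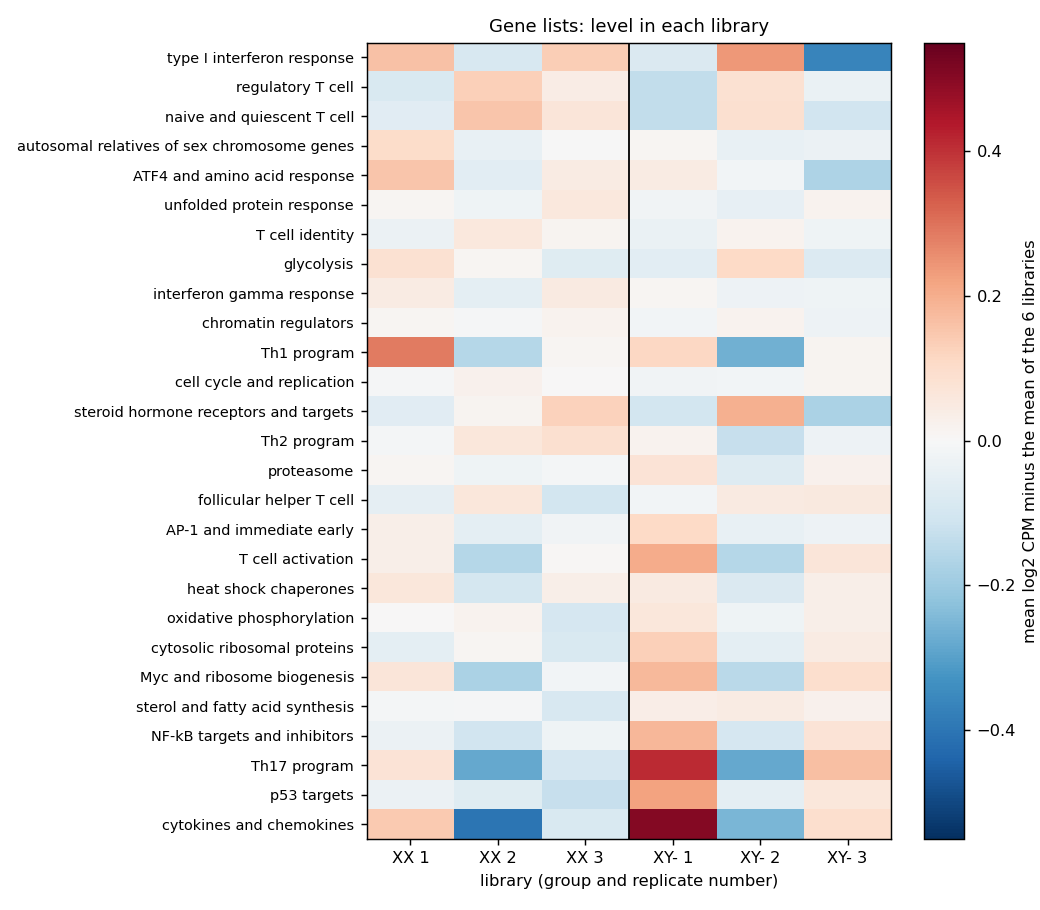
Mean log2 CPM of each gene list other than the markers of other cells and the CD4 panel in each library, minus the mean of the 6 libraries (colour), with XX libraries left of the line and XY- libraries right of it. Among the lists plotted, the largest departures are those of XY- replicate 1 for cytokines and chemokines (0.51) and for the Th17 program (0.41). Next is XX replicate 2 for cytokines and chemokines (-0.40), and the 2 groups overlap in that list.

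The difference of Hspa8 rested on XX replicate 3. Hspa8 had 69.7, 60.9 and 156 CPM in XX libraries and 63.4, 54.1 and 61.3 CPM in XY- libraries, a log2 change of 0.66 ± 0.24 (edgeR adjusted p = 0.742) that was 0.13 without that library. The median of the heat shock chaperone list was -0.05 over 11 tested genes and 0.00 without XX replicate 3. Ribosomal protein genes, many of which have processed copies elsewhere in the genome that counting can confuse with them, were negative in 54 of 75 tested, with a median of -0.08 that was -0.04 without XX replicate 3. Without XX replicate 3, 0 higher and 5 lower stood at an unadjusted p under 0.05. With all libraries these were 3 higher and 9 lower (2.93% and 3.23% over all autosomal genes). Among the lower were Rps18 at -0.27 ± 0.10, Rpl12 at -0.23 ± 0.08 and Rps7 at -0.48 ± 0.19. XX replicate 3 was also the library with the highest mitochondrial share and the lowest total, and the part of either in these values was not tested.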

How the data were processed

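RNA-seq of CD4+ T cells was deposited by the authors as 1 table of raw counts per gene for 12 libraries, 3 in each of 4 groups. Per the submitters' processing notes, bcl2fastq 2.17 was used and mm10 is the build. Aligner, counter and strand setting are not given in the sources used here. Groups follow the labels, and chromosomes come from GENCODE M21, which matched 37693 identifiers (1324 did not match).

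Tests on the counts used R 4.3.3 and edgeR 4.0.16 (TMM scaling, filterByExpr with a minimum count of 10, 1 term per group over 12 libraries, quasi-likelihood F-test, Benjamini-Hochberg adjustment over all tested genes, threshold 0.05). Limma 3.58.1 and DESeq2 1.42.0 gave alternatives. The 95% interval of each log2 change came from its SE. The steps were tested on simulated counts first. Alternatives were other scaling, no filter or a mean of at least 50 reads, DESeq2, voom with quality weights, a replicate block, only XX and XY- libraries, and each library left out.

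Named genes were the 12 higher and 12 lower genes of smallest p with groups that do not overlap and a mean log2 CPM of at least 1, the CD4 panel, up to 4 genes of smallest p and those of widest interval per list, and genes called under an alternative. Any other gene is marked in the text as picked with its values known. Some genes that the rule names are not reported here, though counts and medians include them. The members and lists were chosen with earlier results of these data known. P-values measure only the spread between these libraries.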

Additional observations from a re-analysis of the deposited data

How the results depend on the processing

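The count of autosomal genes with an adjusted p under 0.05 was 0 in the edgeR fit, 88 with no filter on reads, 1 with DESeq2, and 0 to 3 with each library left out. The number of genes tested differed between settings. The count at an unadjusted p under 0.05, 848 of 13777 (6.16%), was 1421 of 25282 with no filter (5.62%). It was 486 of 13372 with only XX and XY- libraries (3.63%), and 465 (3.32%) to 1547 (11.1%) with each library left out. The share of these genes with the same sign in the Sry-carrying groups, 77.6%, was 80.6% with a mean of at least 50 reads, 81.4% with DESeq2, and 65.5% to 88.3% with each library left out. The same share over all autosomal genes tested moved as well. It was 61.9% in the edgeR fit, 63.6% with a mean of at least 50 reads and 62.0% with DESeq2. With each library left out it ran from 55.5% without XX replicate 2 to 67.6% without XY- replicate 2, the fits that gave 65.5% and 88.3%. The cause was not tested. Correlations of deviations between XX and XY- libraries of the same replicate number were 0.179, 0.118 and -0.0334. For unlike numbers they ran from -0.182 to 0.0409. Whether the replicate numbers pair the samples was not tested. The replicate block gave 968 genes at an unadjusted p under 0.05 (7.03%) and 0 called.

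With each library left out the log2 change took both signs for Tcf7 (-0.047 to 0.056), Rsad2 (-0.10 to 0.28), Irf4 (-0.24 to 0.073), Myc (-0.032 to 0.19), Bcl6 (-0.045 to 0.13), Nr4a1 (-0.22 to 0.053), Ccr7 (-0.064 to 0.078), Nrn1 (-0.022 to 0.16), Ifng (-0.77 to 0.037) and Gm42418 (-0.76 to 0.15). Of 475 list medians under alternatives, 461 stayed within the spread between libraries. Below a mean log2 CPM of 1, 42.3% of genes were bounded within 2-fold. The part of read depth in this was not tested.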

Other observations

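Gm42418, annotated as a lincRNA on chromosome 17 and named after its values were seen, varied widely within groups. Its level was 2217, 2192 and 4113 CPM in XX libraries and 6135, 3210 and 1900 CPM in XY- libraries, a log2 change of -0.40 ± 0.40. In the Sry-carrying groups it was 2958, 2911 and 4449 CPM in XXSry libraries and 6467, 2788 and 2403 CPM in XY-Sry libraries. In both pairs of groups replicate 3 was the highest library with XX chromosomes and replicate 1 the highest with XY- chromosomes.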
